A study of Homo sapiens with 27 samples.

Results

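Genes that serve the shape of nerve cells and the handling of their mRNA were followed in a neuroblastoma cell line kept in hypoxia, with and without inhibition of the mTOR kinase. The genes were NEFL, NEFM, NEFH, GAP43, MAP2, STMN2, DCX, ELAVL2, ELAVL3 and ELAVL4. They were chosen by name with earlier results of these data known, so the shares over all genes beside their counts are descriptive. Every probe that the platform annotation assigns to them was taken, which gave 10 genes and 16 probes. All 10 were among the 12664 genes tested, from an array of 48107 probes. SK-N-BE(2)c, a human neuroblastoma line with amplified MYCN, had been exposed to hypoxia for 24, 48 or 72 h with the solvent DMSO or with PP242, an ATP-competitive inhibitor that blocks the mTOR kinase in both of its complexes. The DMSO group at 24 h held 3 arrays and lacked sample number 4. Every other group held 4 arrays, including the 0 h control, for a total of 27 arrays in 7 groups. The control carries no mention of DMSO or hypoxia in its label, so a comparison with it joins hypoxia, DMSO and culture time, which cannot be told apart. Samples are numbered within a group, but nothing says that the numbers are separate cultures, and the p-values given here reflect sample-to-sample spread that may be technical.

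Neurofilaments are the intermediate filaments of neurons. They are copolymers of a light (NEFL), a medium (NEFM) and a heavy (NEFH) subunit and set the calibre of axons. GAP43 is a membrane-bound protein of growth cones. MAP2 binds and stabilises microtubules in dendrites and cell bodies, DCX (doublecortin) binds microtubules in migrating young neurons, and STMN2 is a stathmin that sequesters tubulin in growing neurites. ELAVL2, ELAVL3 and ELAVL4 are the neuronal members of the Hu family (HuB, HuC and HuD), RNA-binding proteins that bind AU-rich stretches of mRNA, whereas their relative ELAVL1 (HuR) is found in most cell types. Neuroblastoma arises from the sympathetic lineage, in which many of these genes mark differentiation towards neurons.

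Promoter sequence is shown for 2 genes that moved in opposite directions in hypoxia, GAP43 and MAP2, because hypoxia-inducible factors bind a short core of the letters ACGTG or GCGTG. The sequences are RefSeq's, on build GRCh38.p14, and run from 250 bases before to 50 after an annotated start, 5′ to 3′ on the gene's strand, both of which are +. Capitals mark the core letters, found on either strand. The GAP43 window is chr3:115623260-115623559 and held neither form. Of the MAP2 starts, the window at chr2:209661246-209661545 held neither, and the window at chr2:209579082-209579381 held GCGTG 4 times in an overlapping run. A further MAP2 window, chr2:209579357-209579656, also held neither and is not printed.
GAP43: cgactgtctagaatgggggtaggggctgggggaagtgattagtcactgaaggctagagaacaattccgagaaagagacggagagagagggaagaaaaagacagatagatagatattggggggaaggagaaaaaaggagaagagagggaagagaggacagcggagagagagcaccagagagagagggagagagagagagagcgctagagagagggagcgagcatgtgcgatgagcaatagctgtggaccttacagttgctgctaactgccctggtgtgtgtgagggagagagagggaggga
MAP2, core absent: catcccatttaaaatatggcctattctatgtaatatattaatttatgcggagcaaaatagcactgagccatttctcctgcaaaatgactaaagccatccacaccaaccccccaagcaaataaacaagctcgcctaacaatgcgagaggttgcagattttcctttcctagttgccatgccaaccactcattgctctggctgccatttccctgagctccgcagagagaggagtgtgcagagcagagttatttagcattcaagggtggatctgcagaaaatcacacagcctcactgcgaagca
MAP2, core present: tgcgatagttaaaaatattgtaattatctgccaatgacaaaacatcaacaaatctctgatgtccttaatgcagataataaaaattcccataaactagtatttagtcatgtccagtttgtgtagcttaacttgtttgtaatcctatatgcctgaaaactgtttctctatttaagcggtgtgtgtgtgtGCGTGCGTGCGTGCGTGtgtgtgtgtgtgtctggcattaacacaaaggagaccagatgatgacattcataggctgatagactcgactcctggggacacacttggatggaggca
Of 35116 promoter windows of this length, 21.4% held ACGTG, 36.5% held GCGTG, 48.4% held at least 1 of them, and 7.26% held CACGTG, the E-box letters bound by MYC proteins, which overlap ACGTG. The search covered 20 annotated starts of 5 of the 10 genes, GAP43, MAP2, DCX, ELAVL2 and ELAVL4. It left out 1 chromosome, so a gene missing from it may still have an annotated promoter. The windows of GAP43 and DCX held none of these letters, and CACGTG was found at 1 of the ELAVL4 starts. ACGTG or GCGTG was found in every ELAVL2 window and in some ELAVL4 windows. Whether these letters relate to any change of the genes in hypoxia was not tested. The array does not tell which start is in use, and these matches are descriptions of letters only.

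The arrays were alike in brightness, with a median deposited intensity of 98 to 113 and 20729 to 22843 probes detected over background on each. All 10 adrenergic sympathoblast markers with a named probe (of 12 listed) were above background on all 27 arrays. Markers of blood and endothelial cells stayed near background, at a summed intensity of 185 to 222 over 2 genes and 347 to 425 over 4, and the Schwann cell genes SOX10 and MBP likewise at 172 to 219. The 4 immune genes summed to 389 to 518, with CD14 above background on 27 arrays. The fibroblast list, of which DCN, LUM, PDGFRB and ACTA2 were above background on most arrays, moved with the treatment. Its summed intensity over 6 genes was 1162 to 1580 in the control and 1173 to 1274, 1648 to 1823 and 1572 to 1874 in DMSO at 24, 48 and 72 h. In PP242 it was 933 to 1041, 766 to 966 and 778 to 1024 at the same times, with 2, 4 and 3 of 6 genes lower by the test. The part of these genes in the results below was not tested, and COL1A1 and COL1A2, defining fibroblast genes, were above background on 9 and 3 arrays. Of 5 hypoxia genes measured, 5, 5 and 4 were higher in DMSO at 24, 48 and 72 h than in the control, and 2, 4 and 4 were lower with PP242 than with DMSO. Of 6 proliferation genes, 5 were lower in DMSO at 72 h than in the control, and all 6 were lower with PP242 at 24 h (median log2 change -2.32), against 2 and 0 at 48 and 72 h. With the sample number as a block 4 were lower at 48 h and 2 higher at 72 h. The part of the proliferation genes was not tested either.

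In DMSO at 72 h of hypoxia, the neurofilament subunits NEFM and NEFH, the growth cone protein GAP43 and the RNA-binding protein ELAVL4 were lower than in the 0 h control. MAP2 and DCX were higher at that time. Without the block NEFH and DCX were called at 72 h only, and the others at 48 h too. At 24 h no gene of the 10 differed in limma at an adjusted p under 0.05, with 2 at an unadjusted p under 0.05 (1511 of all genes), and 1.01% of all genes were called. At 48 h 4 were called, 1 higher and 3 lower, against a background of 13.8% of all genes (6.71% higher and 7.11% lower). At 72 h 6 were called, 2 higher and 4 lower, against 24.5% of all genes (11.2% higher and 13.3% lower). With the sample number as a block, 1 gene was called at 24 h and 7 at 48 h, where the block called 2.85% and 23.6% of all genes. At 72 h, where the numbers were not treated as paired, the block called 7, and 34.4% of all genes. The median log2 change of the 10 genes was -0.21, -0.25 and -0.32 at 24, 48 and 72 h, while the median of all genes was -0.01, -0.02 and -0.01.

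With PP242, relative to DMSO at the same time, ELAVL4 was higher at each time, and DCX was higher at 24 h but lower at 48 and 72 h. NEFM was lower at 24 and 48 h, MAP2 lower at 48 and 72 h, and GAP43 lower at 24 h and higher at 72 h. At 24 h 5 of the 10 genes were called, 3 higher and 2 lower, where 21.6% of all genes were called (10.4% higher and 11.3% lower). Scaling each array to one median in place of quantile normalization turned that split to 1 higher and 4 lower, so the balance at 24 h depended on the scaling. At 48 h 4 were called, 1 higher and 3 lower, against 10.2% of all genes (4.41% higher and 5.76% lower). At 72 h 5 were called, 2 higher and 3 lower, against 8.88% (3.41% higher and 5.46% lower). Scaling to one median made the split at 72 h 2 higher and 1 lower. Averaging the kept probes of each gene made it 2 higher and 2 lower at 48 h. The median change was 0.03, -0.08 and 0.22, and that of all genes 0.00, -0.01 and 0.00, and at 24 h it turned to -0.11 with arrays scaled to one median. Over these 6 comparisons 8 of the genes were called at least once without the block. ELAVL4 was called in 5, NEFM, GAP43, MAP2 and DCX in 4 each, and NEFL and ELAVL2 in none. With the block 6, 5 and 7 genes were called with PP242 at 24, 48 and 72 h, where it called 29.8%, 19.8% and 17.1% of all genes. NEFL was then called in hypoxia at 24, 48 and 72 h and with PP242 at 72 h.

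**Figure D1:**
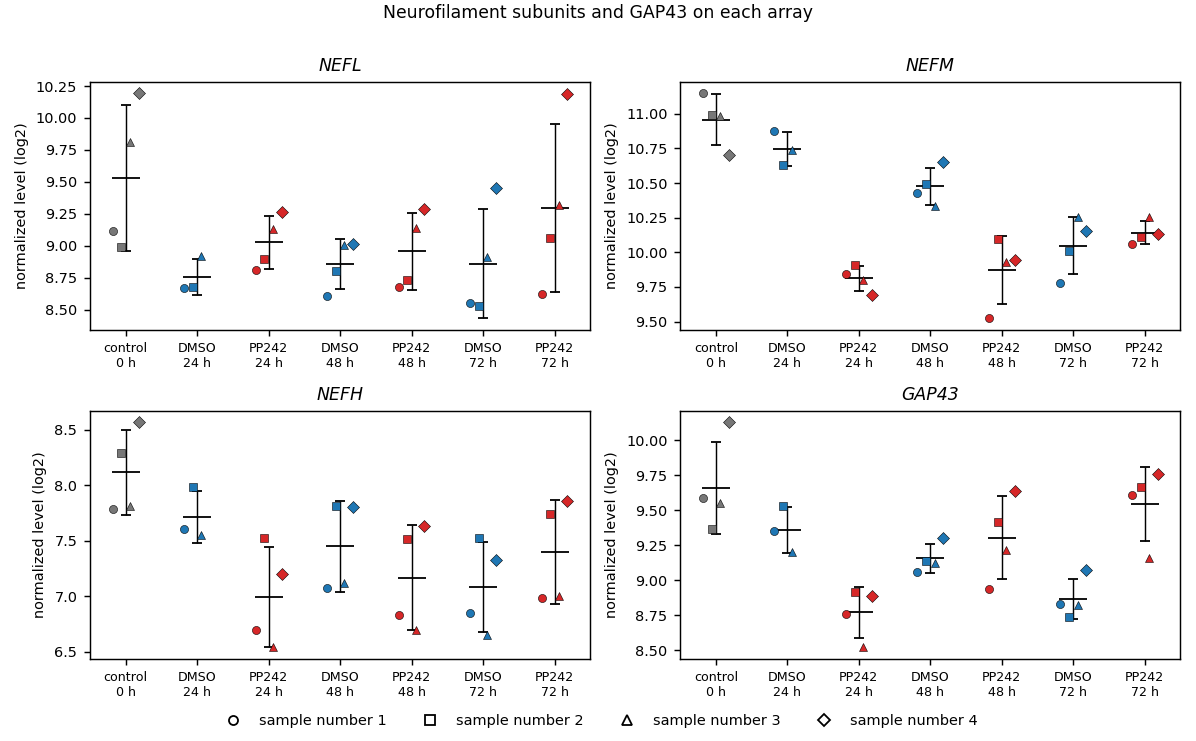
Normalized log2 level (vertical axis) of the neurofilament genes and GAP43 on each of the 27 arrays, by group (horizontal axis). Symbols mark the sample number, bars the group mean and SD. The NEFM mean is 10.96 in the control and 10.75, 10.48 and 10.05 in DMSO at 24, 48 and 72 h, and NEFH separates by sample number within every group.

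NEFM (probe ILMN_2215989) encodes the medium subunit and was called in 4 of the 6 comparisons with DMSO or the control. Its normalized log2 level was 11.15, 10.99, 10.99 and 10.71 on the 4 control arrays, 10.87, 10.63 and 10.74 in DMSO at 24 h, 10.43, 10.50, 10.33 and 10.65 at 48 h, and 9.78, 10.01, 10.26 and 10.15 at 72 h. With PP242 it was 9.85, 9.91, 9.80 and 9.70 at 24 h, 9.52, 10.10, 9.93 and 9.95 at 48 h, and 10.06, 10.11, 10.26 and 10.13 at 72 h. All PP242 arrays lay below all DMSO arrays at 24 and 48 h, and the groups overlapped at 72 h. Relative to the control, NEFM in DMSO fell by 0.48 (SE 0.13, adjusted p = 0.0104) at 48 h and by 0.91 (SE 0.13, adjusted p = 4.22e-06) at 72 h on the log2 scale. The call at 48 h was lost with only the groups compared in the fit (adjusted p = 0.0603). The change of -0.21 at 24 h had an adjusted p of 0.542. PP242 lowered it relative to DMSO by 0.94 (SE 0.14), 1.91-fold, with an adjusted p of 1.29e-05 at 24 h, and by 0.60 (SE 0.13) with an adjusted p of 0.00218 at 48 h. At 72 h the difference was 0.09 (95% interval -0.17 to 0.35, adjusted p = 0.768). The level with PP242 changed by 0.33 between 24 and 72 h (adjusted p = 0.146), whereas DMSO fell by 0.70 (adjusted p = 6.42e-04) over the same time, and at 72 h both groups had nearly the same mean (10.05 and 10.14).

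NEFH (probe ILMN_1705153), the heavy subunit, was measured as log2 levels of 7.79, 8.29, 7.81 and 8.57 in the control and 6.85, 7.52, 6.65 and 7.32 in DMSO at 72 h. The DMSO arrays at 72 h were all below the control arrays, a fall of 1.03 (SE 0.27, adjusted p = 0.00466), or 2.04-fold. In between, it was 7.61, 7.98 and 7.55 in DMSO at 24 h and 7.07, 7.81, 7.12 and 7.80 at 48 h. With PP242 the 24 h arrays read 6.70, 7.52, 6.54 and 7.20, all below DMSO, but the change of -0.72 (SE 0.29) had an adjusted p of 0.0758. It was called with arrays scaled to one median (-0.95, adjusted p = 0.0135), with only the groups compared in the fit (adjusted p = 0.0320) and without PP242 array 2 (adjusted p = 0.0298). At 48 and 72 h the PP242 arrays ranged from 6.70 to 7.63 and from 6.98 to 7.86, with changes of -0.28 (adjusted p = 0.597) and 0.31 (adjusted p = 0.583). The spread within a group followed the sample number, with numbers 2 and 4 above their own group's mean in every group (by 0.35 and 0.36 on average) and numbers 1 and 3 below it (by -0.30 and -0.36).

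Same-numbered samples deviated together across the genes, so the model was also fitted with the sample number as a block. That fit called 29.8%, 19.8% and 17.1% of all genes with PP242 at 24, 48 and 72 h. DMSO at 24 h lacked number 4, which was above its group's mean in all 6 other groups for NEFL, NEFH, GAP43 and ELAVL3. With the block the PP242 change at 24 h went from 0.27 to 0.11 for NEFL and from -0.59 to -0.67 for GAP43. It went from 0.60 to 0.52 for ELAVL3, from 0.58 to 0.52 for ELAVL4 and from -0.40 to -0.35 for MAP2. In the blocked fit NEFH passed the test at 24 h of PP242 (-0.84, SE 0.11, adjusted p = 1.74e-06), at 72 h of PP242 (0.31, SE 0.10, adjusted p = 0.0385), and at 48 h of hypoxia (-0.66, SE 0.10, adjusted p = 2.40e-05). It also passed for PP242 at 72 h against 24 h (0.40, adjusted p = 0.00954) and for DMSO at 72 h against 24 h (-0.75, adjusted p = 1.50e-05). NEFH was thus lower with PP242 than with DMSO at 24 h and higher at 72 h when the numbers were paired.

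NEFL (probe ILMN_1659086), the light subunit on which neurofilament assembly rests, passed the test in none of the comparisons as fitted without the block. Control levels were 9.12, 8.99, 9.81 and 10.19, and DMSO levels were 8.67, 8.68 and 8.92 at 24 h, 8.61, 8.80, 9.0 and 9.02 at 48 h, and 8.55, 8.53, 8.91 and 9.45 at 72 h. The control arrays were all above the DMSO arrays at 24 h and overlapped them at 48 and 72 h. The changes against the control were -0.77 (SE 0.28, adjusted p = 0.252), -0.67 (SE 0.26, adjusted p = 0.0936) and -0.67 (SE 0.26, adjusted p = 0.0667). With arrays scaled to one median NEFL was called at 48 h (-0.82, adjusted p = 0.0134) and 72 h (-0.89, adjusted p = 0.00348). It was also called at 48 h without control array 2 (adjusted p = 0.0380), and at 72 h without control array 1 or 2 or DMSO array 4 (adjusted p from 0.0216 to 0.0393). With the sample number as a block, NEFL was lower at 24 h (-0.61, SE 0.16, adjusted p = 0.0264) and at 48 h (-0.67, SE 0.14, adjusted p = 8.26e-04). It was also lower at 72 h (-0.67, SE 0.14, adjusted p = 4.91e-04), where the numbers were not treated as paired. PP242 levels ranged from 8.81 to 9.26, from 8.68 to 9.29 and from 8.62 to 10.18 at 24, 48 and 72 h. Relative to DMSO these were changes of 0.27, 0.10 and 0.43, with adjusted p of 0.575, 0.880 and 0.381, and at 72 h NEFL was higher in the blocked fit (adjusted p = 0.0346). All number 4 arrays were above their group's mean, by 0.48 on average, as were all number 3 arrays, by 0.14, while all number 1 and 2 arrays were below it.

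GAP43 (probe ILMN_1794552) is a growth cone protein and a long-used marker of axon growth. Its log2 levels were 9.59, 9.36, 9.55 and 10.13 in the control, then 9.35, 9.53 and 9.20 in DMSO at 24 h, 9.06, 9.14, 9.12 and 9.30 at 48 h, and 8.83, 8.74, 8.82 and 9.07 at 72 h. With PP242 the levels ran the other way, at 8.76, 8.92, 8.52 and 8.89 at 24 h, 8.94, 9.42, 9.22 and 9.64 at 48 h, and 9.61, 9.66, 9.16 and 9.76 at 72 h. The PP242 arrays were all below DMSO at 24 h, overlapped it at 48 h and were all above it at 72 h. GAP43 in DMSO fell by 0.50 (SE 0.16, adjusted p = 0.0350) at 48 h and by 0.79 (SE 0.16, adjusted p = 4.58e-04) at 72 h relative to the control. The call at 48 h was lost when control array 4 or any of DMSO arrays 1, 2 and 3 was left out (adjusted p from 0.0714 to 0.167), and with only the groups compared in the fit (adjusted p = 0.0972). PP242 changed it by -0.59 (SE 0.17, adjusted p = 0.0143) at 24 h, 0.15 (SE 0.16, adjusted p = 0.660) at 48 h and 0.68 (SE 0.16, adjusted p = 0.00572) at 72 h. The call at 24 h was lost without DMSO array 2 (adjusted p = 0.0888) or PP242 array 3 (adjusted p = 0.0587).

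**Figure D2:**
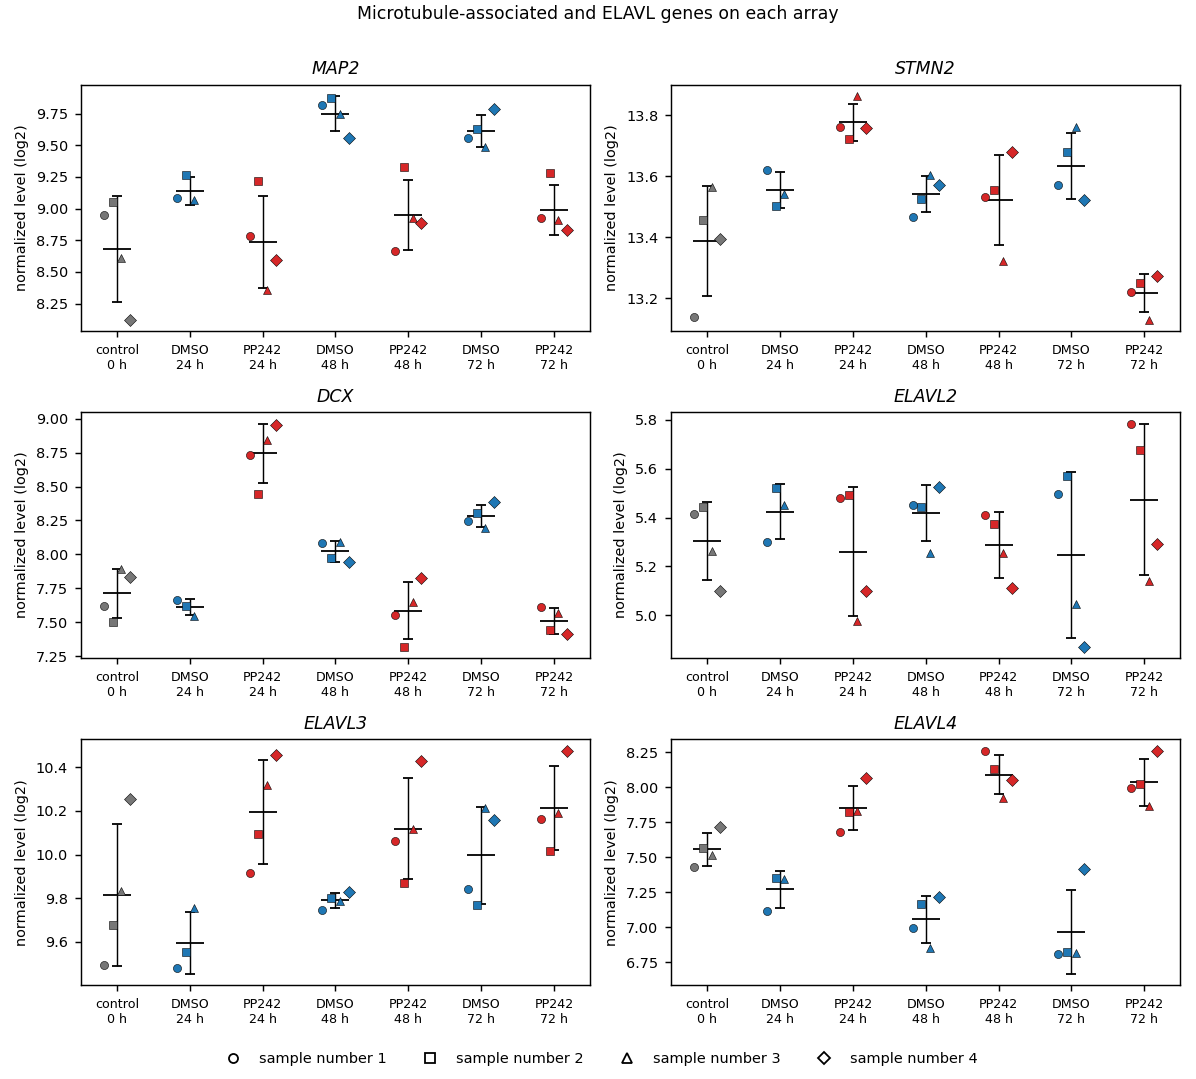
Normalized log2 level (vertical axis) of the microtubule-associated and ELAVL genes on each of the 27 arrays, by group (horizontal axis). Symbols mark the sample number, bars the group mean and SD. DCX peaks in PP242 at 24 h with a mean of 8.74, and ELAVL4 is at 7.68 or above on all PP242 arrays and at 7.42 or below on all DMSO arrays.

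MAP2, the dendritic microtubule-associated protein, was read by 4 probes. On the brightest (ILMN_2388484) the log2 levels were 8.95, 9.05, 8.61 and 8.12 in the control, 9.08, 9.26 and 9.07 in DMSO at 24 h, 9.82, 9.87, 9.75 and 9.55 at 48 h, and 9.56, 9.63, 9.49 and 9.78 at 72 h. With PP242 they were 8.78, 9.22, 8.36 and 8.60 at 24 h, 8.67, 9.33, 8.92 and 8.89 at 48 h, and 8.92, 9.28, 8.91 and 8.83 at 72 h. All DMSO arrays at 48 and 72 h exceeded all control arrays and all PP242 arrays of their time. MAP2 rose against the control by 1.06 (SE 0.18, adjusted p = 1.36e-04), 2.09-fold, at 48 h and by 0.93 (SE 0.18, adjusted p = 2.68e-04) at 72 h, after 0.46 (adjusted p = 0.340) at 24 h. PP242 changed it relative to DMSO by -0.40 (SE 0.19, adjusted p = 0.151), -0.80 (SE 0.18, adjusted p = 0.00380) and -0.63 (SE 0.18, adjusted p = 0.0254) at 24, 48 and 72 h. At 24 h it was called with arrays scaled to one median (-0.71, adjusted p = 0.0303) and without PP242 array 2 (adjusted p = 0.0351). The call at 72 h was lost when DMSO array 2 or 4 or PP242 array 1, 3 or 4 was left out, with adjusted p from 0.0592 to 0.0795, and with arrays scaled to one median (adjusted p = 0.0555).

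The MAP2 probes fell into a bright and a dim set. ILMN_1764201 followed the brightest probe (r = 0.966 over 27 arrays) and changed by -0.54, -0.65 and -0.76 with PP242 at 24, 48 and 72 h, each under 0.05 when adjusted over all kept probes (0.0472, 0.0178 and 0.00584), where 13.0%, 5.45% and 4.47% of probes were called. Deposited intensities of the dim probes ILMN_2276461 and ILMN_2283915 did not exceed 163, and their r with the brightest probe was 0.23 and -0.43. The dim probe ILMN_2283915 changed by 0.28, 0.32 and 0.32 with PP242 and ILMN_2276461 by -0.28, -0.21 and 0.05, none of them called. When the 4 probes were averaged, MAP2 lost its PP242 calls at 48 h (-0.33, adjusted p = 0.0763) and 72 h (-0.25, adjusted p = 0.222).

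STMN2 (stathmin-2), which regulates microtubule assembly in growing axons, was bright on both of its probes, at deposited intensities of 7741 to 16138 on ILMN_2126038 and 3373 to 13714 on ILMN_1795679. The log2 levels on the brighter were 13.14, 13.46, 13.56 and 13.39 in the control and between 13.47 and 13.76 on all 11 DMSO arrays. With PP242 they were 13.76, 13.72, 13.86 and 13.76 at 24 h, 13.53, 13.56, 13.32 and 13.68 at 48 h, and 13.22, 13.25, 13.13 and 13.27 at 72 h. The 72 h arrays of PP242 were all below those of DMSO, a fall of 0.42 (SE 0.10, adjusted p = 0.00920). That call was lost with arrays scaled to one median (adjusted p = 0.105) and with only the groups compared in the fit (adjusted p = 0.0564). Changes with PP242 at 24 and 48 h were 0.22 (adjusted p = 0.174) and -0.02 (adjusted p = 0.940), the former called in the authors' value table (0.31, adjusted p = 0.0396). In DMSO in hypoxia STMN2 differed from the control by 0.17, 0.16 and 0.25 at 24, 48 and 72 h, none called as fitted (lowest adjusted p = 0.0859). The change at 72 h was called under several alternatives: an offset of 50 (adjusted p = 0.0299), no background correction (adjusted p = 0.0203), an intensity trend (adjusted p = 0.0318) and without control array 3 (adjusted p = 0.0469). It was called as well, and larger, with arrays scaled to one median (0.48, adjusted p = 0.0157) and with both probes averaged (0.38, adjusted p = 0.0187). The dimmer probe moved by -0.61 with PP242 at 72 h (adjusted p = 0.0977 over all kept probes), and r between both probes was 0.48.

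DCX, the doublecortin gene, had the largest change with PP242 among the 10 genes at 24 h. Its log2 levels on ILMN_2361096 were 7.62, 7.50, 7.89 and 7.84 in the control, 7.66, 7.62 and 7.55 in DMSO at 24 h, 8.08, 7.97, 8.09 and 7.94 at 48 h, and 8.24, 8.31, 8.19 and 8.38 at 72 h. With PP242 they were 8.73, 8.44, 8.85 and 8.96 at 24 h, 7.55, 7.32, 7.65 and 7.83 at 48 h, and 7.61, 7.44, 7.56 and 7.41 at 72 h. DMSO and PP242 did not overlap at any time, with PP242 above DMSO at 24 h and below it at 48 and 72 h. The change with PP242 was 1.13 (SE 0.13, adjusted p = 4.63e-07), a 2.19-fold rise, at 24 h, then -0.44 (SE 0.12, adjusted p = 0.0180) at 48 h and -0.78 (SE 0.12, adjusted p = 6.08e-05) at 72 h. The call at 48 h was lost without DMSO array 1 or 3 or PP242 array 2, with adjusted p from 0.0524 to 0.0752, and with only the groups compared in the fit (adjusted p = 0.0830). In DMSO in hypoxia DCX differed from the control by -0.10 (adjusted p = 0.770), 0.31 (adjusted p = 0.0912) and 0.57 (SE 0.12, adjusted p = 7.71e-04) at 24, 48 and 72 h. At 48 h it was higher in the blocked fit (0.31, SE 0.11, adjusted p = 0.0366). With arrays scaled to one median the call at 72 h was lost (0.38, adjusted p = 0.0530). The other DCX probe, ILMN_1654855, was above background on 2 of 27 arrays and was not tested.

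ELAVL4 (HuD, probe ILMN_2065254), which stabilises mRNAs during neuronal differentiation, separated DMSO from PP242 at each time. Its log2 levels were 7.43, 7.56, 7.51 and 7.72 in the control, 7.12, 7.35 and 7.34 in DMSO at 24 h, 7.0, 7.16, 6.85 and 7.22 at 48 h, and 6.81, 6.83, 6.82 and 7.42 at 72 h. With PP242 they were 7.68, 7.83, 7.83 and 8.07 at 24 h, 8.26, 8.13, 7.92 and 8.05 at 48 h, and 7.99, 8.02, 7.86 and 8.26 at 72 h. Every PP242 array lay above every DMSO array, whichever times are set side by side. PP242 raised ELAVL4 by 0.58 (SE 0.15, adjusted p = 0.00452) at 24 h, 1.03 (SE 0.14, adjusted p = 7.12e-06) at 48 h and 1.07 (SE 0.14, adjusted p = 3.60e-06) at 72 h, the last 2.10-fold. At 24 h the rise was not called with arrays scaled to one median (0.37, adjusted p = 0.124). In hypoxia with DMSO it changed by -0.29 (adjusted p = 0.442), -0.50 (SE 0.14, adjusted p = 0.0123) and -0.59 (SE 0.14, adjusted p = 0.00167) relative to the control at 24, 48 and 72 h. The call at 48 h was lost without DMSO array 3 (adjusted p = 0.0583).

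ELAVL3 (HuC) was read at log2 levels of 9.49, 9.68, 9.83 and 10.25 in the control on the brighter probe, ILMN_1678618. DMSO levels were 9.48, 9.56 and 9.76 at 24 h, 9.75, 9.80, 9.79 and 9.83 at 48 h, and 9.84, 9.77, 10.21 and 10.16 at 72 h, overlapping the control at each time. With PP242 they were 9.91, 10.10, 10.32 and 10.45 at 24 h, 10.06, 9.87, 10.11 and 10.43 at 48 h, and 10.16, 10.02, 10.19 and 10.48 at 72 h. PP242 arrays were above all DMSO arrays at 24 and 48 h and overlapped them at 72 h. The rise at 24 h was 0.60 (SE 0.17, adjusted p = 0.0101), and it was not called with arrays scaled to one median (0.26, adjusted p = 0.240) or without DMSO array 1 (adjusted p = 0.0589). At 48 and 72 h the changes were 0.33 (adjusted p = 0.202, 0.0283 in the blocked fit, and 0.0431 at a change of 0.45 with both probes averaged) and 0.22 (adjusted p = 0.488). The dim probe ILMN_2401143, at intensities of 120 to 177, changed by 0.37, 0.57 and 0.33, none called. ELAVL2 (HuB, probe ILMN_1769369) was above background on 16 of 27 arrays, at deposited intensities of 95 to 128. Its changes in the 6 comparisons lay between -0.16 and 0.23, none of them called, with SE of 0.16 to 0.17.

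**Figure D3:**
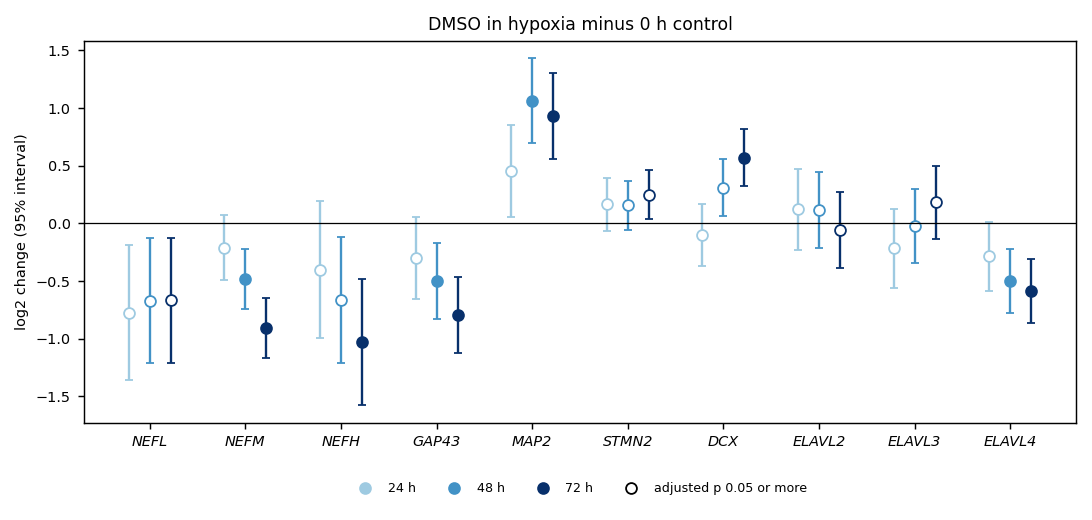
Log2 change of each gene (horizontal axis) in DMSO in hypoxia against the 0 h control at 24, 48 and 72 h, with 95% intervals (vertical axis). Filled points have an adjusted p under 0.05. Filled points lie below 0 for NEFM, NEFH, GAP43 and ELAVL4 and above 0 for MAP2 and DCX.

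**Figure D4:**
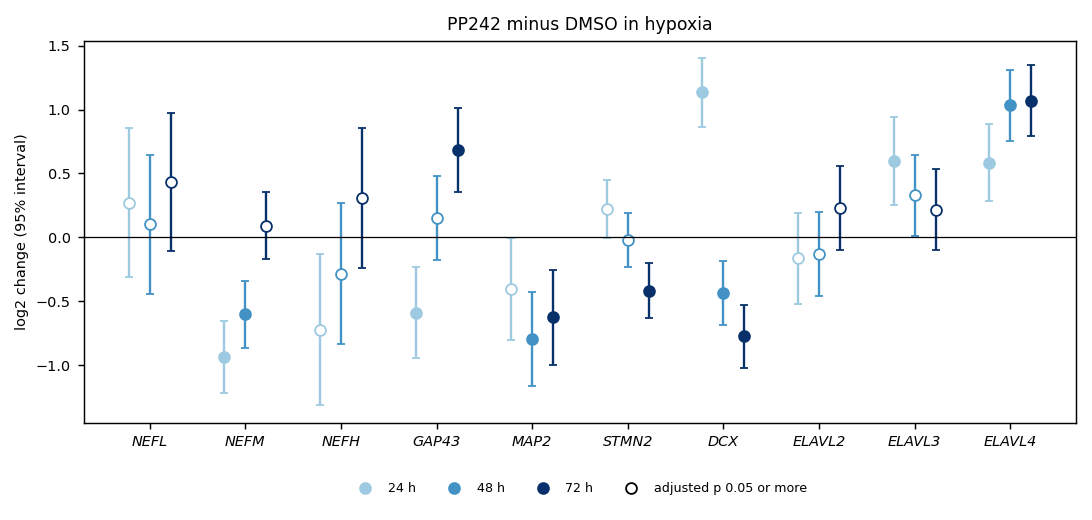
Log2 change of each gene (horizontal axis) with PP242 against DMSO at 24, 48 and 72 h, with 95% intervals (vertical axis). Filled points have an adjusted p under 0.05. DCX moves from 1.13 at 24 h to -0.78 at 72 h, GAP43 from -0.59 to 0.68, and ELAVL4 stays above 0.

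The effect of PP242 itself differed between times for some of these genes. Between 24 and 72 h, 4 of the 10 genes had a differing effect, 2 towards higher and 2 towards lower, where 15.2% of all genes did (7.55% higher and 7.61% lower). The effect rose for GAP43 by 1.27 (SE 0.24, adjusted p = 3.18e-04) and for NEFM by 1.03 (SE 0.19, adjusted p = 2.68e-04). It fell by 1.91 for DCX (SE 0.18, adjusted p = 7.05e-08) and by 0.64 for STMN2 (SE 0.15, adjusted p = 0.00383). With the block, NEFH (1.15, SE 0.15, adjusted p = 2.01e-06) and ELAVL4 (0.55, SE 0.16, adjusted p = 0.0124) were called too, along with 24.7% of all genes. Between 24 and 48 h only DCX was called (-1.57, SE 0.18, adjusted p = 6.38e-06), where 5.05% of all genes were (2.38% lower), and the block added GAP43 (0.82, adjusted p = 0.00300), NEFH (0.56, adjusted p = 0.0159) and ELAVL4 (0.52, adjusted p = 0.0356), 4 in all, while it called 11.9% of all genes. Between 48 and 72 h limma called 0 of the 10, with 3 at an unadjusted p under 0.05, and 0.600% of all genes. In that comparison the block called 3.73% of all genes and 2 of the 10, NEFM (0.69, adjusted p = 0.0238) and NEFH (0.59, adjusted p = 0.0192).

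The PP242 and DMSO arms can also be followed on their own from 24 to 72 h. With DMSO 3 of the 10 genes were called, DCX higher by 0.67 (SE 0.13, adjusted p = 5.60e-04) and NEFM and GAP43 lower, against 16.6% of all genes (7.81% higher and 8.76% lower). The fall of GAP43, by 0.49 (adjusted p = 0.0496), was lost when any DMSO array of 24 h or array 1, 2 or 3 of 72 h was left out (adjusted p from 0.0509 to 0.213), without the filter on dim probes (adjusted p = 0.0650) and in the authors' value table (adjusted p = 0.0618). The block raised the count in DMSO to 7, and the share of all genes called to 25.3%, adding NEFH, MAP2 (0.53, adjusted p = 0.0110), ELAVL3 (0.32, adjusted p = 0.0447) and ELAVL4 (-0.37, adjusted p = 0.0229). With PP242 3 were called, GAP43 higher by 0.78 (SE 0.16, adjusted p = 0.00311), DCX lower by 1.24 on the log2 scale and STMN2 lower by 0.56, against 5.90% of all genes (3.07% higher and 2.83% lower). The last fell short with arrays scaled to one median (adjusted p = 0.0530).

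Ordered by mean level, the groups of a gene mostly overlapped with their neighbours. For DCX the order was PP242 24 h (8.74), DMSO 72 h (8.28), DMSO 48 h (8.02), control (7.71), DMSO 24 h (7.61), PP242 48 h (7.59) and PP242 72 h (7.51), with no overlap between neighbours among the highest 4. For ELAVL4 the PP242 groups (8.09, 8.04 and 7.85 at 48, 72 and 24 h) came before the control (7.56) and then DMSO at 24, 48 and 72 h (7.27, 7.06 and 6.97), and the control stood clear of DMSO at 24 h. MAP2 was highest in DMSO at 48 h (9.75) and 72 h (9.62), both clear of DMSO at 24 h (9.14), and lowest in the control (8.68). NEFM was highest in the control (10.96), and DMSO at 48 h (10.48) stood clear of PP242 at 72 h (10.14). In NEFL, NEFH, GAP43, STMN2, ELAVL2 and ELAVL3 each group overlapped the next. Arrays of both groups did not overlap for 31.8%, 13.9% and 14.2% of all genes in the PP242 comparisons at 24, 48 and 72 h, and for 11.9%, 15.2% and 23.6% in the comparisons with the control.

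The further intermediate filament genes showed mixed changes. Of 5 genes, 2, 0 and 1 were higher and 0, 0 and 0 lower with PP242 at 24, 48 and 72 h, and 0, 1 and 1 were higher and 0, 2 and 2 lower in hypoxia. Over all genes 21.6%, 10.2% and 8.88% were called with PP242, and 1.01%, 13.8% and 24.5% in hypoxia. PRPH (peripherin), a filament of peripheral neurons, rose by 0.79 (SE 0.12, adjusted p = 2.98e-05) with PP242 at 24 h. NES (nestin), a filament of neural progenitors, fell by 1.37 (SE 0.24, adjusted p = 7.28e-05) in hypoxia at 72 h and rose by 1.16 (SE 0.24, adjusted p = 0.00152) with PP242 at 72 h. SYNM (synemin) fell by 1.35 (SE 0.23, adjusted p = 5.80e-05) in hypoxia at 72 h, and VIM (vimentin), a filament of mesenchymal and progenitor cells, rose by 1.08 (SE 0.27, adjusted p = 0.00361). The median change of the list was 0.40, 0.17 and -0.03 with PP242. With the block the counts called with PP242 were 4, 1 and 2, and 1 was called in hypoxia at 24 h. Of all genes the block called 29.8%, 19.8% and 17.1% with PP242 and 2.85% in hypoxia at 24 h.

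Among 26 other microtubule-binding genes, 6, 5 and 3 were higher and 7, 2 and 0 lower with PP242 at 24, 48 and 72 h. In hypoxia 1, 2 and 3 were higher and 0, 5 and 9 lower. The shares of all genes called were 21.6%, 10.2% and 8.88% with PP242, and 1.01%, 13.8% and 24.5% in hypoxia. With the block 8, 6 and 7 were higher and 8, 6 and 0 lower with PP242, so the excess of higher calls at 48 h was not kept. In hypoxia the block called 1, 2 and 6 higher and 3, 8 and 10 lower, with the numbers not treated as paired at 72 h. Over all genes it called 29.8%, 19.8% and 17.1% with PP242, and 2.85%, 23.6% and 34.4% in hypoxia. STMN1, the stathmin of dividing cells and a relative of STMN2, fell by 1.64 (SE 0.22, adjusted p = 3.10e-06) with PP242 at 24 h, when all 6 proliferation genes were lower. KIF5C, a kinesin heavy chain of neurons, rose by 0.58, 1.10 and 1.35 with PP242 (adjusted p = 0.0261, 8.49e-05 and 4.10e-06) and fell by 0.60 in hypoxia at 72 h (adjusted p = 0.0111). EML1, a microtubule-binding EMAP-family protein, fell by 1.01 in hypoxia at 72 h (adjusted p = 1.74e-06) and by 0.61 with PP242 at 24 h (adjusted p = 0.00273). DPYSL4, of the collapsin response mediator family, rose by 0.96, 0.85 and 0.99 in hypoxia (highest adjusted p = 2.04e-04) and by a further 0.53 and 0.64 with PP242 at 24 and 48 h. The list's median change lay between -0.08 and 0.14 in the 6 comparisons.

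Of the 30 growth cone, axon and adhesion genes 26 were tested. With PP242 2, 2 and 4 were higher and 3, 3 and 5 lower, and in hypoxia 0, 2 and 3 were higher and 0, 3 and 3 lower. Of all genes 21.6%, 10.2% and 8.88% were called with PP242, and 1.01%, 13.8% and 24.5% in hypoxia. BASP1, a growth cone protein related in function to GAP43, fell by 0.90 (SE 0.13, adjusted p = 9.55e-06) in hypoxia at 72 h and by 0.60 (SE 0.14, adjusted p = 0.00313) with PP242 at 24 h. The adhesion molecule NCAM2 and the axon guidance receptor ROBO2 rose in hypoxia at 72 h by 1.16 (adjusted p = 2.62e-05) and 0.94 (adjusted p = 1.85e-04), and both fell with PP242 at 72 h, by 0.72 (adjusted p = 0.0121) and 0.90 (adjusted p = 9.24e-04). PLXNA2, a semaphorin receptor, rose by 0.96 and 0.85 with PP242 at 48 and 72 h (adjusted p = 3.80e-04 and 0.00146). With the block 10 were called in place of 5 with PP242 at 48 h, 10 in place of 5 in hypoxia at 48 h, and 8 in place of 5 with PP242 at 24 h, and 1 in place of 0 in hypoxia at 24 h. In the same order the block called 19.8%, 23.6%, 29.8% and 2.85% of all genes.

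Of 31 other neuronal RNA-binding and splicing genes 24 were tested. With PP242 3, 3 and 2 were higher and 0, 2 and 1 lower, and in hypoxia 0, 3 and 4 were higher and 0 lower at each time. Among all genes 21.6%, 10.2% and 8.88% were called with PP242, and 1.01%, 13.8% and 24.5% in hypoxia. The block raised the count with PP242 at 24 h from 3 to 6 and in hypoxia at 24 h from 0 to 1, which was lower. There it called 29.8% and 2.85% of all genes. At 72 h in hypoxia, where the numbers were not treated as paired, the block called 4 higher and 2 lower, and 34.4% of all genes. ELAVL1, the widely expressed Hu protein, rose with PP242 by 0.52, 0.75 and 0.65 (adjusted p = 0.0202, 0.00129 and 0.00486), as ELAVL4 did, and changed in hypoxia by -0.20, -0.11 and 0.09, none called. CELF3, a neuronal splicing regulator, rose by 1.52 (SE 0.23, adjusted p = 1.65e-05) with PP242 at 24 h and by 1.07 (SE 0.21, adjusted p = 3.63e-04) in hypoxia at 72 h. MSI2, a translational regulator of progenitor cells, rose by 0.99 (SE 0.16, adjusted p = 2.49e-05) in hypoxia at 72 h and fell by 1.09 (SE 0.16, adjusted p = 2.19e-05) with PP242 at 72 h. KHDRBS3, a splicing regulator of the STAR family, rose by 0.65 and 0.98 with PP242 at 48 and 72 h (adjusted p = 0.00243 and 2.08e-05).

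Of 29 synaptic vesicle and exocytosis genes 23 were tested. With PP242 3, 2 and 1 were higher and 3, 1 and 2 lower, and in hypoxia 0, 3 and 2 were higher and 0, 3 and 3 lower. Across all genes 21.6%, 10.2% and 8.88% were called with PP242, and 1.01%, 13.8% and 24.5% in hypoxia. SYT11 rose with PP242 by 0.82, 0.55 and 0.59 (highest adjusted p = 0.00373), whereas SYT4 fell by 0.99, 1.18 and 0.94 (highest adjusted p = 0.00319). Both belong to the synaptotagmins, proteins of vesicle fusion, as does SYT1, which rose by 0.98 (adjusted p = 4.58e-04) in hypoxia at 72 h and fell by 0.93 (adjusted p = 0.00235) with PP242 at 72 h. SYN2 (synapsin II), a vesicle-coating protein, rose by 0.93 and 0.81 in hypoxia at 48 and 72 h (adjusted p = 4.66e-04 and 8.71e-04). With the block 9 were called in place of 3 with PP242 at 48 h and 5 in place of 3 at 72 h. At these times the block called 19.8% and 17.1% of all genes.

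The 10 genes did not share a single pattern over the 27 arrays. The strongest positive Pearson correlations among them were 0.73 for NEFH with GAP43, 0.71 for STMN2 with DCX, 0.66 for NEFM with NEFH and 0.59 for ELAVL3 with ELAVL4. GAP43 and DCX (r = -0.70) and MAP2 and ELAVL4 (r = -0.65) ran most nearly opposite. Among all genes tested, those closest to each were BARD1 (0.93) for NEFM, TBX2 (0.93) for NEFL, SNRNP40 (0.90) for NEFH and CCDC15 (0.87) for GAP43. ID2 (0.90) and SLC2A1 (0.90), the glucose transporter gene of the hypoxia check list, were closest to MAP2, H2AJ (0.76) to STMN2 and TBC1D22A (0.89) to DCX. ZNF536 (0.93) was closest to ELAVL4, NISCH (0.95) to ELAVL3 and SC5D (0.78) to ELAVL2. These coefficients describe 27 arrays that share groups and sample numbers, and they carry no test.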

How the data were processed

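Total RNA of 27 samples of SK-N-BE(2)c cells was labelled as biotinylated cRNA and hybridised to Illumina bead arrays, per the labels' protocols. The authors deposited a non-normalized table of signal intensity, 1 whole number per probe and array on a linear scale for 48107 probes, and a value table of intensity for 27367 probes (median 109.561), which lay within 2.12% of a quantile normalization computed here. Neither table holds detection p-values, negative controls or a stated background correction. Each column of sample values was matched to its sample (0 unmatched).

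Intensities of the non-normalized table were background corrected with normexp (offset 16), log2 transformed, then quantile normalized with every probe included. Background per array was estimated from the mode of its signals and the SD mirrored below it (density bandwidth 1.5). Probes above it (p under 0.05) on 3 or more arrays were retained, 31318 in number. A gene is its kept probe of highest mean, which gave 12664 genes. Symbols come from the platform annotation, where 23495 probes of the value table have 1 symbol, 1 has several and 3871 have none, and 23471 were matched to RefSeq through the gene identifier with 0 symbols changed.

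One linear model over 7 groups was fitted with limma 3.58.1 in R 4.3.3 for 11 comparisons, with empirical Bayes moderation and Benjamini-Hochberg adjustment over all genes, two-sided, at 0.05. The same fit was also run on simulated data with known changes. Its noise was independent between arrays, so deviations shared by sample number were not simulated. SE is the moderated standard error. The number of arrays limits the precision. Same-numbered arrays were correlated after removal of group means. Every pair exceeded 0.1 except in DMSO at 72 h against the control, whose lowest value was 0.0982. In the other comparisons the numbers were treated as paired only in the alternative fit with the block, because the labels do not say what same-numbered samples share. Calls that differ between both fits are given with the block named, and neither fit is taken as the final one. Unless the block is named, counts and p-values come from the fit without it. All 10 members are named, and of each of 5 further lists the 4 genes with the smallest p in the 6 main comparisons. Members and lists were chosen with earlier results of these data known.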

Additional observations from a re-analysis of the deposited data

Results flagged for a closer look

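One array stood apart from its group among the 60 sets of 4 arrays examined for the 10 genes, where chance flags about 1 set in 20. ELAVL4 read 7.42 in DMSO at 72 h on array 4, against 6.81 to 6.83 on the other arrays. Without that array the change of ELAVL4 with PP242 at 72 h was 1.22 (SE 0.13, adjusted p = 2.67e-07) and the change in hypoxia at 72 h was -0.74 (SE 0.13, adjusted p = 8.61e-05).

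The PP242 effect differed between times by the test of the difference itself for 4 genes. DCX differed by -1.57 between 24 and 48 h (adjusted p = 6.38e-06) and by -1.91 between 24 and 72 h (adjusted p = 7.05e-08), with opposite signs at 24 h and at the later times. GAP43 differed by 1.27 (adjusted p = 3.18e-04) and NEFM by 1.03 (adjusted p = 2.68e-04) between 24 and 72 h. STMN2 differed by -0.64 (adjusted p = 0.00383) over the same times.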

How the results depend on the processing

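Of the 35 called changes of the 10 genes, 22 kept direction and call under every alternative run, 13 lost the call under at least 1, and 0 turned sign. The counts of genes called stayed within 1.5 times of those reported except as follows. With arrays scaled to one median the counts were 3 for PP242 at 72 h, 5 for DMSO at 72 h against 24 h and 2 for the difference between 48 and 24 h. With only the groups compared in the fit they were 2 for hypoxia at 48 h and 5 for DMSO at 72 h against 24 h. With the sample number as a replicate block they were 1 and 7 for hypoxia at 24 and 48 h, 7 for DMSO at 72 h against 24 h, and 4 and 2 for the differences of 48 against 24 h and 72 against 48 h. The last was 1 with an offset of 50, without background correction, with the stricter filter and in the authors' value table. The block changed no other call of the 10 genes than those given above. Among these is NEFL in hypoxia at 72 h (adjusted p = 4.91e-04), where the numbers were not treated as paired.

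Leaving out each array in turn gave 4 to 7, 3 to 4 and 4 to 5 genes for PP242 at 24, 48 and 72 h, and 0 to 0, 2 to 5 and 6 to 7 for hypoxia. It gave 2 to 4 and 3 to 3 for the DMSO and PP242 time courses, and 1 to 2, 4 to 5 and 0 to 1 for the differences of 48 against 24 h, 72 against 24 h and 72 against 48 h. The count for hypoxia at 48 h fell to 2 without DMSO array 3, and those for the differences of 48 against 24 h and 72 against 48 h rose to 2 and 1 without PP242 arrays 1 and 2 of 48 h. Arrays scaled to one median moved the share of higher calls over all genes from 47.8% to 23.8% for PP242 at 24 h, from 43.4% to 19.7% at 48 h, and from 48.6% to 29.5% and 45.7% to 29.2% for hypoxia at 48 and 72 h. That scaling also called MAP2 and NEFH with PP242 at 24 h, NEFL and NEFH (-0.80, adjusted p = 0.0368) in hypoxia at 48 h, and NEFL and STMN2 in hypoxia at 72 h. It moved the median of all genes by less than 0.1, while the median of the 10 genes went from 0.03 to -0.11 for PP242 at 24 h and from -0.21 to -0.12 for hypoxia at 24 h.

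Changes that turned sign were all uncalled, both as fitted and after turning. With arrays scaled to one median ELAVL3 in hypoxia at 72 h went from 0.18 to -0.029 and GAP43 with PP242 at 48 h from 0.15 to -0.037. NEFL with PP242 went from 0.27 to -0.034 at 24 h and from 0.10 to -0.077 at 48 h, and STMN2 with PP242 at 48 h from -0.02 to 0.078. STMN2 at 48 h was also 0.0028 with probes averaged and 2.43e-04 in the authors' value table. Leaving out each array gave -0.17 to 0.066 for ELAVL2 in hypoxia at 72 h and -0.13 to 0.12 for ELAVL3 in hypoxia at 48 h. With PP242 at 48 h it gave -0.073 to 0.046 for STMN2 and -0.0096 to 0.19 for NEFL. The cause was not tested. ELAVL2 was above background on 16 of 27 arrays.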
